A study of Caenorhabditis elegans with 2 samples.

Results

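The regions described here are the peaks of the chromatin protein LET-526 that lay in the promoter of exactly 1 protein-coding gene. A peak was a member when the window reaching from 1000 bp before to 200 bp past the annotated start held its summit for 1 protein-coding gene and for no other, and no tRNA gene lay within 200 bp. Of the 1200 peaks in the authors' optimal thresholded list, 342 were members (28.5%, exact 95% interval 26 to 31.1%), and they lay in the promoters of 325 genes. The other peaks were 154 in the promoters of 2 or more genes, 135 near a tRNA gene and 569 in no promoter window. The rule was applied to the positions on the WBcel235 assembly (ce11), so every member fulfilled it by construction.

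Binding was measured by chromatin immunoprecipitation with sequencing (ChIP-seq) in 1 group of 2 biological replicates of whole young adult Caenorhabditis elegans. The worms, strain RW12306, carried the allele st12306, a let-526::TY1::EGFP::3xFLAG insertion made by CRISPR at let-526, and both replicates carried it. They were synchronised by starving L1 larvae after bleaching and collected at an age of 60 hours, with sex not collected. An anti-GFP antibody pulled down the sonicated chromatin, and a possible control experiment named in the labels was not analysed here. A whole animal mixes all tissues, so a peak bound in a few cells and one bound weakly in many cannot be told apart, and a peak list offers no tissue markers to check. The files held peaks with a deposited signal and no read counts, which leaves the sequencing depth unknown, and every interval given reflects only the number of peaks or genes counted. With 1 group and 2 replicates no test between conditions was possible, and all values are descriptions.

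LET-526 is the worm counterpart of the ARID1 subunits of the SWI/SNF (BAF) complex, an ATP-driven machine that slides and ejects nucleosomes. ARID proteins bind DNA with little sequence preference and help place the complex at enhancers and promoters. In worms, SWI/SNF is known for roles in cell fate, asymmetric division and development. Most worm transcripts are trans-spliced, so that an annotated gene start is often the splice site at the head of the mature RNA, with the true start of transcription lying further upstream.

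The sequences of 9 of the strongest members are shown as examples of the windows in which GC content and short words are counted later over all members. Their GC content ran from 42.6% at mog-4 and cdc-48.1 to 57.4% at rpl-3, and K12H4.5, cnk-1 and hsp-1 held a GA repeat. Each is the summit base with 50 bp to either side, read 5′ to 3′ on the strand of the gene from the RefSeq WBcel235 genome. Capitals mark matches to any of the 12 motifs searched on both strands.
rpl-3 promoter, chrIII:3867536-3867636, plus strand: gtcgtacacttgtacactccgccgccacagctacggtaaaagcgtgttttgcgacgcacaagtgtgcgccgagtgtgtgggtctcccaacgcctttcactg
mog-4 promoter, chrII:14561813-14561913, minus strand: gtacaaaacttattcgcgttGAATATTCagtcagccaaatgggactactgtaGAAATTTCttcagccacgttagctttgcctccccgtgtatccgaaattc
rpl-35 promoter, chrIII:7854626-7854726, plus strand: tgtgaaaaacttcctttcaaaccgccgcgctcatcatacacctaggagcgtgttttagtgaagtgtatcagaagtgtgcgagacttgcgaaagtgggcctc
K12H4.5 promoter, chrIII:8043935-8044035, plus strand: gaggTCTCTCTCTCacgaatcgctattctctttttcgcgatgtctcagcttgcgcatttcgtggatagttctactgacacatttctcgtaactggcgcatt
mtcu-2 promoter, chrII:10033641-10033741, minus strand: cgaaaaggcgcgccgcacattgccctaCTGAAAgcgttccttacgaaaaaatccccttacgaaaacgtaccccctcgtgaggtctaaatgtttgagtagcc
cnk-1 promoter, chrIII:10270894-10270994, plus strand: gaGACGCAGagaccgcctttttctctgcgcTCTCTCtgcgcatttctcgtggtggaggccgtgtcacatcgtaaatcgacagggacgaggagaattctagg
cdc-48.1 promoter, chrII:10563532-10563632, minus strand: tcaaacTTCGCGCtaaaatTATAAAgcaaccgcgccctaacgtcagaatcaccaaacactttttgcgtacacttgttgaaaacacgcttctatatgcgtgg
cbp-1 promoter, chrIII:9765549-9765649, plus strand: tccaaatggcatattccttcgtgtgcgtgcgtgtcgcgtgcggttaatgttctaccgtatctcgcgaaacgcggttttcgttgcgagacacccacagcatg
hsp-1 promoter, chrIV:17278544-17278644, plus strand: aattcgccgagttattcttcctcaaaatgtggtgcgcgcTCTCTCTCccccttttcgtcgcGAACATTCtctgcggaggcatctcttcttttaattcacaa
Of these windows, rpl-3, rpl-35 and cbp-1 held no searched motif, cnk-1 held the word GACGCAG beside a GA repeat, and cdc-48.1 held a match to GCGCGAA and to the TATA motif TATAAA. The windows of rpl-3, rpl-35, cdc-48.1 and cox-5A shared a longer word, AGCGTGTTTT or its reverse complement. It was found by listing 10-letter words held by at least 3 of the genes with the 25 strongest members. No other of the 1200 peaks had it in its summit window, and the genome held 255 matches.

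A second word recurred at members on several chromosomes. Among 66 words of 10 letters held by at least 5 members, or by at least 3 of the genes with the 25 strongest, GGCCCCACGA had the most peaks for its number of matches in the genome. It was chosen from these windows after their values were seen, so its counts are a description. The 8 windows below that avoid annotated exons are oriented so that the word, in capitals, reads forward.
Y62F5A.12 promoter, chrII:11534964-11535064, minus strand: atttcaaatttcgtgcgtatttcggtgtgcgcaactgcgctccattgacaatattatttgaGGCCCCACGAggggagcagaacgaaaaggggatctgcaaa
eel-1 promoter, chrIV:3050431-3050531, plus strand: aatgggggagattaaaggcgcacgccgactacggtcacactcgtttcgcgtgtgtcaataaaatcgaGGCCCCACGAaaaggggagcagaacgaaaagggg
rps-24 promoter, chrIV:385510-385610, minus strand: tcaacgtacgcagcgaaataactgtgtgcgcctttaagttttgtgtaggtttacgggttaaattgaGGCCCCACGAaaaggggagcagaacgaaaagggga
C26B2.7 promoter, chrIV:8015768-8015868, plus strand: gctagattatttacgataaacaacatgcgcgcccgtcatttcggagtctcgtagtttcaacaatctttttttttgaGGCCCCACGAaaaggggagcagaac
eel-1 promoter, chrIV:3050849-3050949, minus strand: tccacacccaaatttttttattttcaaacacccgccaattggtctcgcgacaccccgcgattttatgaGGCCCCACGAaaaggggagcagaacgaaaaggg
M01F1.9 promoter, chrIII:3499989-3500089, minus strand: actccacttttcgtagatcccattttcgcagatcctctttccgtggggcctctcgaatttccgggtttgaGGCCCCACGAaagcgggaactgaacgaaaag
C09E7.7 promoter, chrIII:6551361-6551461, plus strand: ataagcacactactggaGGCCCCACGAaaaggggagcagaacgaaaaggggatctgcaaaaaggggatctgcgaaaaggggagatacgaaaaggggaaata
ttll-4 promoter, chrIII:10123793-10123893, minus strand: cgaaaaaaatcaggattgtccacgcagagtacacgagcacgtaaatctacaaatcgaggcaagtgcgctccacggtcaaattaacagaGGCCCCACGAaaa
The word GGGGAGCAGA, another of the 66, followed in 6 of the windows, those of Y62F5A.12, rps-24, C26B2.7, C09E7.7 and both peaks of eel-1. The windows of M01F1.9, ttll-4 and npp-6 lacked it. Both members of eel-1 held the rare word, on opposite strands. The 9 members with it had signals from 73.7 at ttll-4 to 322.0 at Y62F5A.12, with a median of 148.4 against 93.3 for all members. Of 110 matches in the genome, 28 lay in bases of 1 promoter window, and 9 of those (32.1%) were within 50 bp of a summit. Of the 12 matches in bases of 2 or more windows, 5 were near a summit, and of the 70 matches outside promoter windows, 0 were. The search kept only words inside the summit window, so their centres lay near the summit by rule. The centre was within 31 bp of the summit in 8 of the 9 members. For the word GAGACGCAGA, described below, this held in 13 of 20. The limit of 31 bp is the distance at C26B2.7, so these counts are descriptions only.

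The 3 strongest members lay upstream of rpl-3, mog-4 and rpa-2. In the optimal list rpl-3, a protein of the large ribosomal subunit, had the highest member signal, 551.3, with 295.7 in replicate 1 and 252.8 in replicate 2. mog-4, a splicing helicase of the DEAH family, followed with 522.6, and with 298.6 and 228.8 in the replicates. rpa-2, which encodes part of the RPA complex that coats single-stranded DNA, reached 409.0, with 232.1 and 165.4 in the replicates. These 3 summits lay 268, 264 and 648 bp upstream of the gene starts, and all 3 intervals were found in both replicates. Signals were the authors' values per peak and were compared only within a list.

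Next came rpl-35, another large subunit protein, with a signal of 347.4, and K12H4.5 with 344.8. The summit of F59C6.18, with a signal of 326.4, lay 811 bp upstream of its start and within 200 bp of the snoRNA gene F59C6.15. mtcu-2, which acts in the modification of mitochondrial tRNA, had 322.8 from a summit inside an intron of its upstream neighbour let-268. cnk-1, a scaffold of Ras signalling, had 307.6, and cdc-48.1, the AAA ATPase that unfolds ubiquitinated proteins, had 300.3. cbp-1, the CBP/p300 histone acetyltransferase, had 293.8 from a summit 910 bp upstream, and hsp-1, the constitutive Hsp70 chaperone, had 286.0. The remaining genes of the 25 strongest members were Y62F5A.12, eel-1, Y39B6A.43, H41C03.3, rps-24, cox-5A, C47E8.4, eelo-2, nspc-17, cox-5B, Y75B12B.11, serp-1.1, Y39E4B.6 and egg-5, with signals from 322.0 down to 190.7. Of the 25 intervals, 22 were narrower than the 270 bp width that 319 of the 342 members had.

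**Figure D1:**
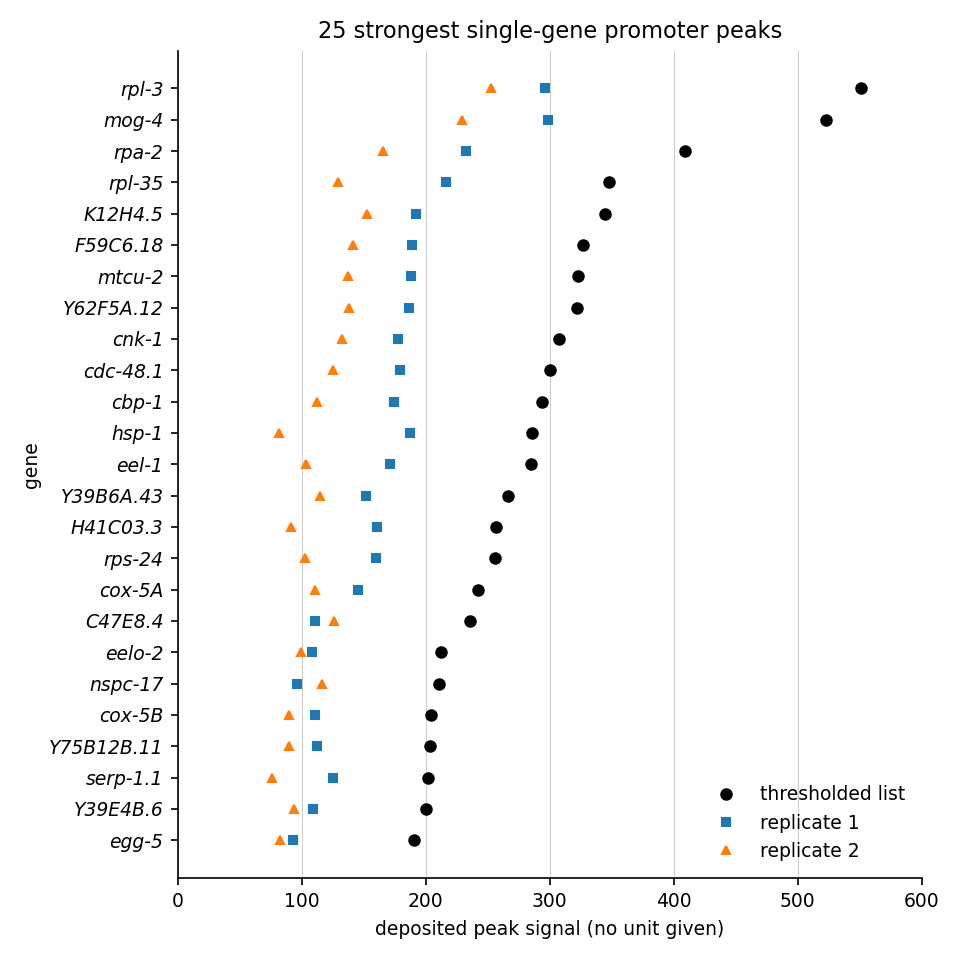
Deposited signal of the 25 strongest members (horizontal axis, no unit given) by gene, in the optimal thresholded list (circles) and in the ranked lists of replicate 1 (squares) and replicate 2 (triangles). Values in the optimal list run from 551.3 at rpl-3 to 190.7 at egg-5, and replicate 1 is the higher replicate at most of the genes, with C47E8.4 and nspc-17 the exceptions.

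The strongest members were also called in each replicate alone. The optimal list was made from the alignments of both replicates, so its signal and these calls are not independent. Their relation is therefore no separate check of a peak. A member counted as called in a replicate when it overlapped a thresholded peak of that replicate by 1 bp or more. Of the 342 members, 82 were called in both replicates (24.0%, interval 19.5 to 28.9%), beside 22.8% of all optimal peaks. Replicate 1 called 155 (45.3%), beside 46% of all optimal peaks, and replicate 2 called 116 (33.9%), beside 33.4%. The conservative list held 272 of the members (79.5%), beside 76.4% of all optimal peaks. Called in neither replicate alone were 153 members (44.7%), beside 43.3% of all optimal peaks. The members' shares thus lay near those of the whole list. All 25 strongest members were called in both, and so were 49 of the 50 strongest and 75 of the 100 strongest. Of the 100 weakest, 1 was called in both and 82 in neither. The 1 called in both was the weaker member of T07F10.3, with a signal of 11.4, which overlapped a stronger peak.

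In the ranked lists, which the thresholds did not trim, 331 members (96.8%) had a peak in both replicates, beside 97.5% of all optimal peaks. The signal was higher in replicate 1 for 248 of the 331, with a median ratio of 1.32. Over all optimal peaks found in both ranked lists it was higher in replicate 1 for 856 of 1170, with a ratio of 1.26. Across these members the replicate signals were related with rho 0.43 (Spearman) and, after taking log10, with r 0.62 (Pearson). Without the 25 strongest, rho was 0.28 over 306 members. Over the 1170 optimal peaks rho was 0.36 and r 0.54. Members are not independent replicates, and all points share the same pair of libraries. Each member took the strongest peak of a ranked list that overlapped it, so a member beside a stronger peak can carry that peak's value. Both members of T07F10.3, for example, had 65.4 and 72.8. The members that differed most in rank were lin-66, F58D5.5 and lro-1, all higher in replicate 1, and mai-2, hmg-6 and ubc-7, all higher in replicate 2. F58D5.5 had only 16.4 in the optimal list, with 55.4 and 11.0 in replicates 1 and 2. lin-66 had signals of 76.9 and 20.2 in replicates 1 and 2, at ranks 254 and 18240. mai-2, a mitochondrial ATPase inhibitor, had 22.6 and 50.1, at ranks 17574 and 517. Neither mai-2 nor ubc-7, a ubiquitin-conjugating enzyme, was called in either replicate alone.

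**Figure D2:**
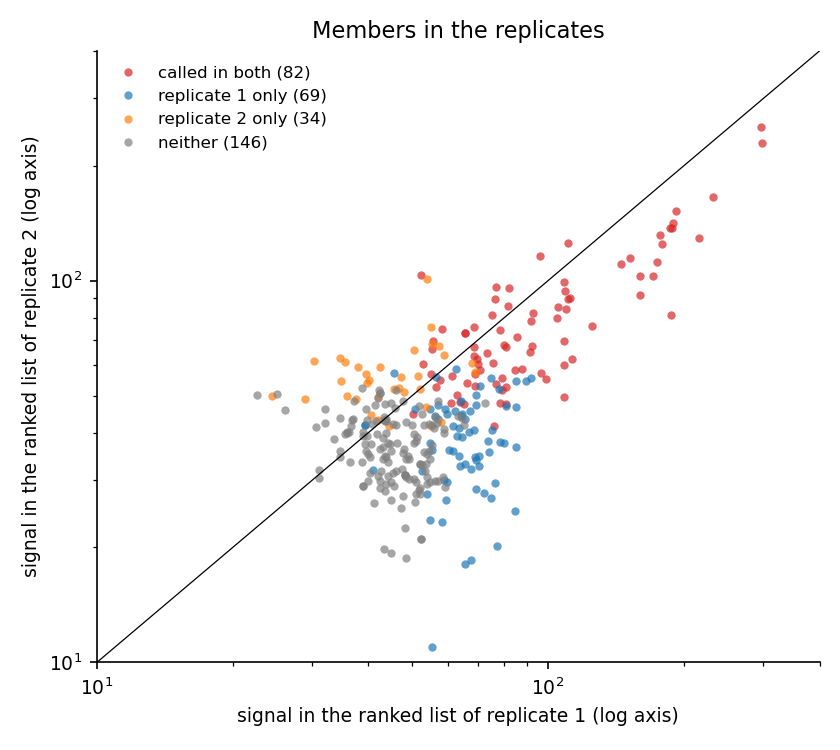
Signal of the 331 members with a peak in both ranked lists, replicate 1 against replicate 2 on log axes, coloured by the thresholded lists that called them. The line marks equal signal, and 248 of the 331 members lie below it, on the side of replicate 1.

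A small set of members had a low signal. The median over members was 93.3, with an interquartile range from 79.6 to 123.1, and 14 members had a signal below 50, the lowest being 6.53 at scpl-3. Of those 14, 12 overlapped a stronger optimal peak, and these were all the members that did. Leaving such secondary peaks out is the alternative given at the end. Peaks in the promoters of 2 or more genes had a median signal of 103.3, and peaks in no promoter window had 87.6.

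Members gathered a short distance upstream of the start. Of the 342 summits, 305 (89.2%, interval 85.4 to 92.3%) lay upstream, with a median distance over all members of 293.5 bp and an interquartile range from 143.0 to 521.5 bp. The rule set this share in part, since the window reached 1000 bp upstream and only 200 bp downstream. The 100 bp bin from 300 to 200 bp upstream held the most members, 60. Per Mb of bases that lay in 1 window only, that bin held 38.8 members, against 20.3 in the 100 bp just upstream of the start, 7.98 at the far end of the window and 7.39 at its downstream end. Over the whole unshared window the density was 17.9 members per Mb. Bases in 2 or more windows held 65.3 peaks per Mb, and bases in no window held 7.25. The windows of 1 gene made up 19.1% of the genome.

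Downstream of the start, where the window reached only 200 bp, lay 37 summits (10.8%). Per Mb of unshared bases the first 100 bp of the gene held 15.7 members, near the 17.9 of the whole window. The 25 members in the first 100 bp of the gene had a median signal of 81.9, and 4% of them were called in both replicates. The 12 members from 100 bp to 200 bp had a median of 80.8, with none called in both (0 of 12). In the bin from 300 to 200 bp upstream the median was 103.0 and 33.3% were called in both. Downstream members included prmt-5, an arginine methyltransferase, at 85 bp with a signal of 120.1, vit-2, a yolk protein, at 119 bp with 115.4, and the Krebs cycle gene mdh-1 at 190 bp with 81.2. Near the edges of the window, mrps-35 (993 bp upstream) and M01F1.9 (982 bp) were just inside, as were vit-6 (195 bp downstream) and mdh-1. Just outside were fbxb-58 at 1002 bp upstream with a signal of 208.0, mstr-1 at 1012 bp with 193.2, lab-2 at 210 bp downstream with 70.2, and F28F8.7 at 211 bp with 111.2. The peak of lab-2 outside the window overlapped a weaker member of the same gene.

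**Figure D3:**
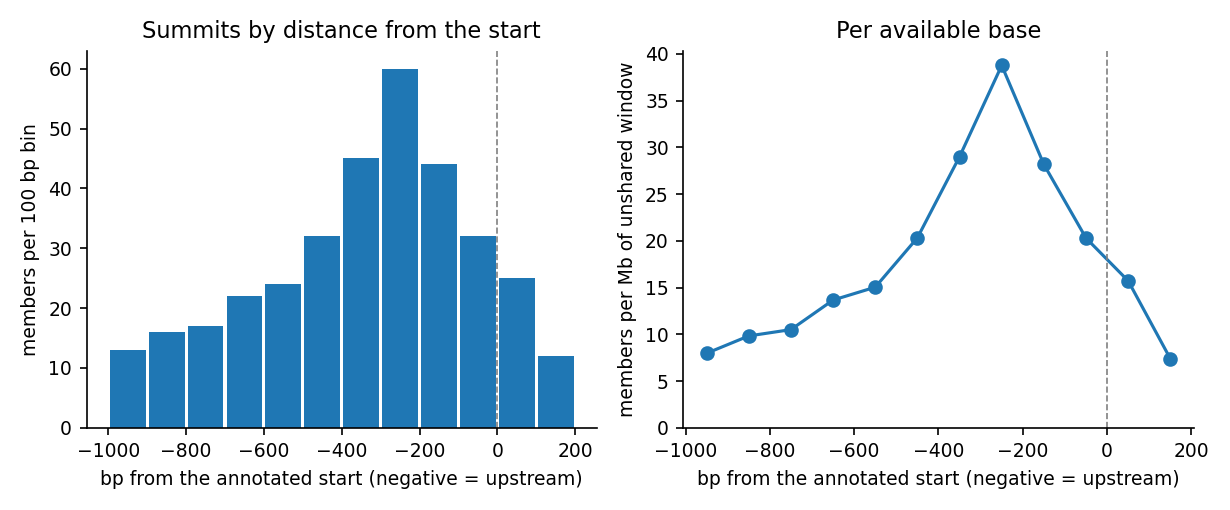
Members by distance of the summit from the annotated start in 100 bp bins (negative is upstream, dashed line at the start). The left panel counts members, with 60 in the fullest bin, and the right panel divides them by the bases that lie in 1 window only, with 38.8 per Mb in the same bin.

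Most members lay in sequence between genes. The summits of 232 members (67.8%, interval 62.6 to 72.8%) fell outside any annotated gene, 34 in the gene whose promoter they marked, and 31 in a non-coding gene or pseudogene only. Another protein-coding gene held 45 summits (13.2%, interval 9.76 to 17.2%), of which 31 were in introns, 8 in UTRs and 6 in coding exons. Of the available bases in windows of 1 gene, 27.4% lay inside another protein-coding gene. Members inside another gene included pinn-1, in an intron of sqv-2, and C47E8.4, in an intron of hsp-90, the cytosolic Hsp90 chaperone. The upstream neighbour was on the same strand for 195 of the 325 genes (60.0%), and on the same strand within 500 bp for 75 (23.1%). The same shares over all eligible genes were 54.3% and 20.6%.

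Genes for small RNAs lay close to some members. A snoRNA or snRNA gene was within 200 bp of 20 summits (5.85%). Of the available bases, 0.219% lay that near a snoRNA gene and 0.0556% that near an snRNA gene, whereas 4.09% and 1.75% of the members did. The members of H41C03.3 and egg-5, with signals of 256.8 and 190.7, lay beside sls-2.1 and sls-2.4, genes for SL2 spliced leader RNA, which is trans-spliced to downstream genes of operons. Those of F59C6.18, Y75B12B.11 and F55A11.11, with 326.4, 203.2 and 166.3, lay beside the snoRNA genes F59C6.15, Y75B12B.12 and F55A11.10. A peak beside such a gene cannot be assigned to it or to the protein-coding gene, since both starts lie in reach. Genes of the class ncRNA were within 200 bp of 49 members (14.3%), beside 3.6% of the available bases, and piRNA genes of 3 members (0.877%), beside 2.34%. Summits inside an ncRNA gene included those of swsn-7 (C08B11.11), puf-9 (W06B11.7 and W06B11.9) and wwp-1 (Y65B4BR.10). Such peaks too cannot be assigned to the ncRNA gene or to the protein-coding gene.

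On each chromosome the members were counted per Mb of windows of 1 gene. Chromosome I had the highest density, 24.9, followed by X with 21.4, III with 20.3, II with 18.2, IV with 14.9 and V with 12.4. X held 63 members (18.4%, interval 14.5 to 22.9%) and 21.1% of all optimal peaks. Chromosome V, which carries many chemoreceptor genes, held 59 members. The window of let-526 itself held none.

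Summits of members were GC-rich. The median GC content in the summit window, 50 bp to either side, was 49.5%, and that of flanks centred 400 bp to either side was 36.1%. The median difference was 13.4 percentage points, and the summit window was the higher one in 311 of 342 members (90.9%). Windows of the same length tiled over promoters without a peak had a median of 34.7%. The summits of peaks in 2 or more promoters had a median of 50.5%, and those in no promoter window 47.5%. The mean profile fell from 50.6% at the summit to 40.3% at 100 bp upstream and 39.5% at 100 bp downstream. Repeats masked in the RefSeq genome made up more than 50% of the window in 26 members (7.60%), and 148 members (43.3%) had no masked base in it. Of the available bases 33.8% were masked. That is a share of bases and not of windows, so it cannot be set directly against the 7.60%. The part of GC content in the peak calls was not tested.

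**Figure D4:**
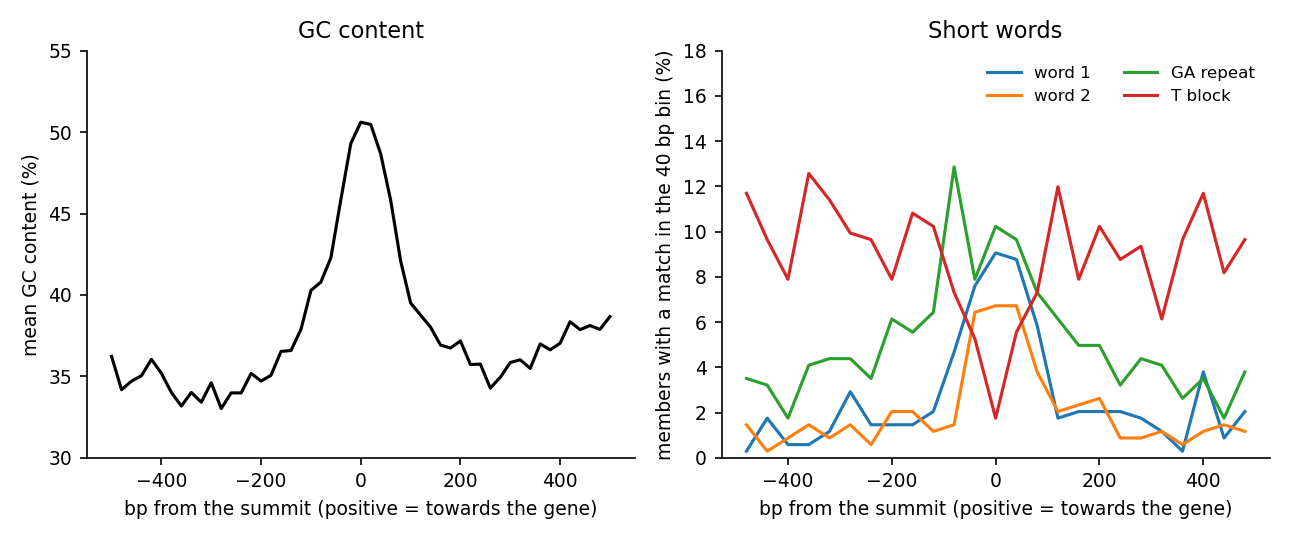
Left, mean GC content in windows of 21 bp, every 20 bp, around the summits of the members, with 50.6% at the summit. Right, share of the 342 members with a match in each 40 bp bin, on both strands, for CGTCTC (word 1) and also GCACAC (word 2), for the GA repeat GAGAGA and for the T block of 7 letters, with word 1 at 9.06% and the T block at 1.75% in the central bin.

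GA-rich and GC-rich words were found in a larger share of summit windows than of promoter tiles. The GA repeat GAGAGA, searched on both strands like all motifs, was in 71 of 342 member windows (20.8%, interval 16.6 to 25.5%), in 5.99% of their flanks and in 5.91% of the 170417 tiles. The word GACGCAG was in 30 (8.77%, interval 6 to 12.3%), in 0.439% of flanks and in 0.920% of tiles. In the 86 strongest members its share was 14%, and in the 86 weakest 2.33%. The E-box CACGTG, bound by bHLH factors, was in 5.56%, beside 1.67% of tiles, the word GCGCGAA, close to E2F sites, in 3.80%, beside 0.509%, and the GC box GGGCGG in 6.43%, beside 1.88%. The bZIP motif TGACGTCA was in 3 windows (0.877%), beside 0.518%. Peaks in 2 or more promoters and peaks in no promoter window held GAGAGA in 16.9% and 24.3%, and GACGCAG in 9.74% and 8.79%. These classes held GGGCGG in 6.49% and 6.68%, CACGTG in 3.25% and 7.21%, and GCGCGAA in 3.90% and 1.41%. Most of the larger shares were thus not particular to members. All are matches of letters and not tested sites.

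The T block, the TATA motif, the splice acceptor and the heat shock element were in a smaller share of summit windows than of tiles. The T block TTTTTTT was in 30 windows (8.77%), beside 21.9% of tiles, the TATA motif TATAAA in 4.39%, beside 12.7%, and the splice acceptor TTTCAG in 8.19%, beside 18.9%. The GATA motif GATAAG, bound by the intestinal factors ELT-2 and ELT-7, was in 16 windows (4.68%), close to the 4.36% of tiles. The heat shock element GAANNTTC was in 3.22%, beside 6.96%, and the AP-1 motif TGACTCA in 3 windows (0.877%), close to the 1.02% of tiles. Peaks in 2 or more promoters and peaks in no promoter window held the T block in 4.55% and 7.21%. They held TATAAA in 6.49% and 5.27%, TTTCAG in 7.79% and 8.44%, and GAANNTTC in 7.79% and 7.56%.

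A count of all 6-letter words, made after the values were seen, put CGTCTC first by the ratio of its share in members to that in tiles, among words held by at least 15% of the members. It was in 63 windows (18.4%, interval 14.5 to 22.9%) and in 2.94% of tiles. GCACAC was second, in 54 windows (15.8%) and 2.87% of tiles. Peaks in 2 or more promoters held CGTCTC in 14.3% and GCACAC in 10.4%. The words AGAGAC (16.1%) and then ACGAGA (17.3%) and finally AGAGAG (18.4%) came next, and several overlap each other or the GA repeat. At least 1 of the word CGTCTC, the word GCACAC and the GA repeat was in 144 windows (42.1%, interval 36.8 to 47.5%) and in 10.7% of tiles. GC content moved with these words, and its part in the counts was not tested. In windows with a GC content from 44.6% to 54.5%, the interquartile range of the members, the share was 41.4% of members and 20.7% of tiles. Within that range CGTCTC was in 14.8% of members and 7.74% of tiles, GCACAC in 18.5% and 5.89%, GACGCAG in 8.64% and 2.73%, and CACGTG in 3.70% and 3.22%. The GC box GGGCGG was in 6.17% and 5.83%, and the T block TTTTTTT in 6.17% and 4.48%, above tiles rather than below. The TATA motif TATAAA was in 2.47% of members and 2.83% of tiles in that range, a small gap beside that over all windows, and TTTCAG in 6.79% and 11.1%.

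The 10-letter word held by the most members was GAGACGCAGA, which joins CGTCTC (read on the other strand) and GACGCAG. It was in 20 member windows (5.85%), in 64 of the 1200 optimal peaks and at 3338 places in the genome. Its members had a median signal of 106.0, and the word lay on the strand of the gene in 10 and on the other strand in 10. The strongest were cnk-1 (307.6), Y39B6A.43 (266.1), ntl-11, a component of the CCR4-NOT deadenylase complex (181.5), and hsp-3, the BiP chaperone of the endoplasmic reticulum (180.9). Members with and without the 3 short words had median signals of 95.1 and 91.9.

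The genes of the members were then counted in 34 lists. Each was a pattern of gene symbols, so a gene's place in a list rests on its name and not on its known function. Of 19647 protein-coding genes with bases in 1 window only, 325 (1.65%) had a member, and each list was read against that share. At least 1 list held 117 of the 325 genes (36%), beside 28.2% of all eligible genes. In 21 lists the share was above 1.65%, and in 11 of them the exact interval lay above it. In 2 lists the interval lay below it, and 5 lists had no member. In the thresholded list of replicate 1 alone 155 genes (0.789%) had a member, and in that of replicate 2 alone 116 (0.59%). Of the 11 lists, 3 had an interval above that share in each replicate alone: cytosolic ribosomal proteins, chaperones and chromatin regulators. Oxidative phosphorylation, the proteasome and ubiquitin list and secretory traffic did so in replicate 1 only, and translation factors in replicate 2 only. The other 4, splicing, SWI/SNF, nuclear pore and other transcription factors, did so in neither. Germline and oocyte genes, not among the 11, also had an interval above that share in each replicate alone. Cell cycle genes, likewise outside the 11, did so in replicate 2 only. Members beside a snoRNA or snRNA gene were counted too, though they cannot be assigned to the protein-coding gene. Among them were those of eif-2Bgamma, snr-4, mrpl-23, sdha-1, cox-6A, gst-27, sre-23 and egg-5. The lists were chosen with results of these data known, and no list was tested.

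**Figure D5:**
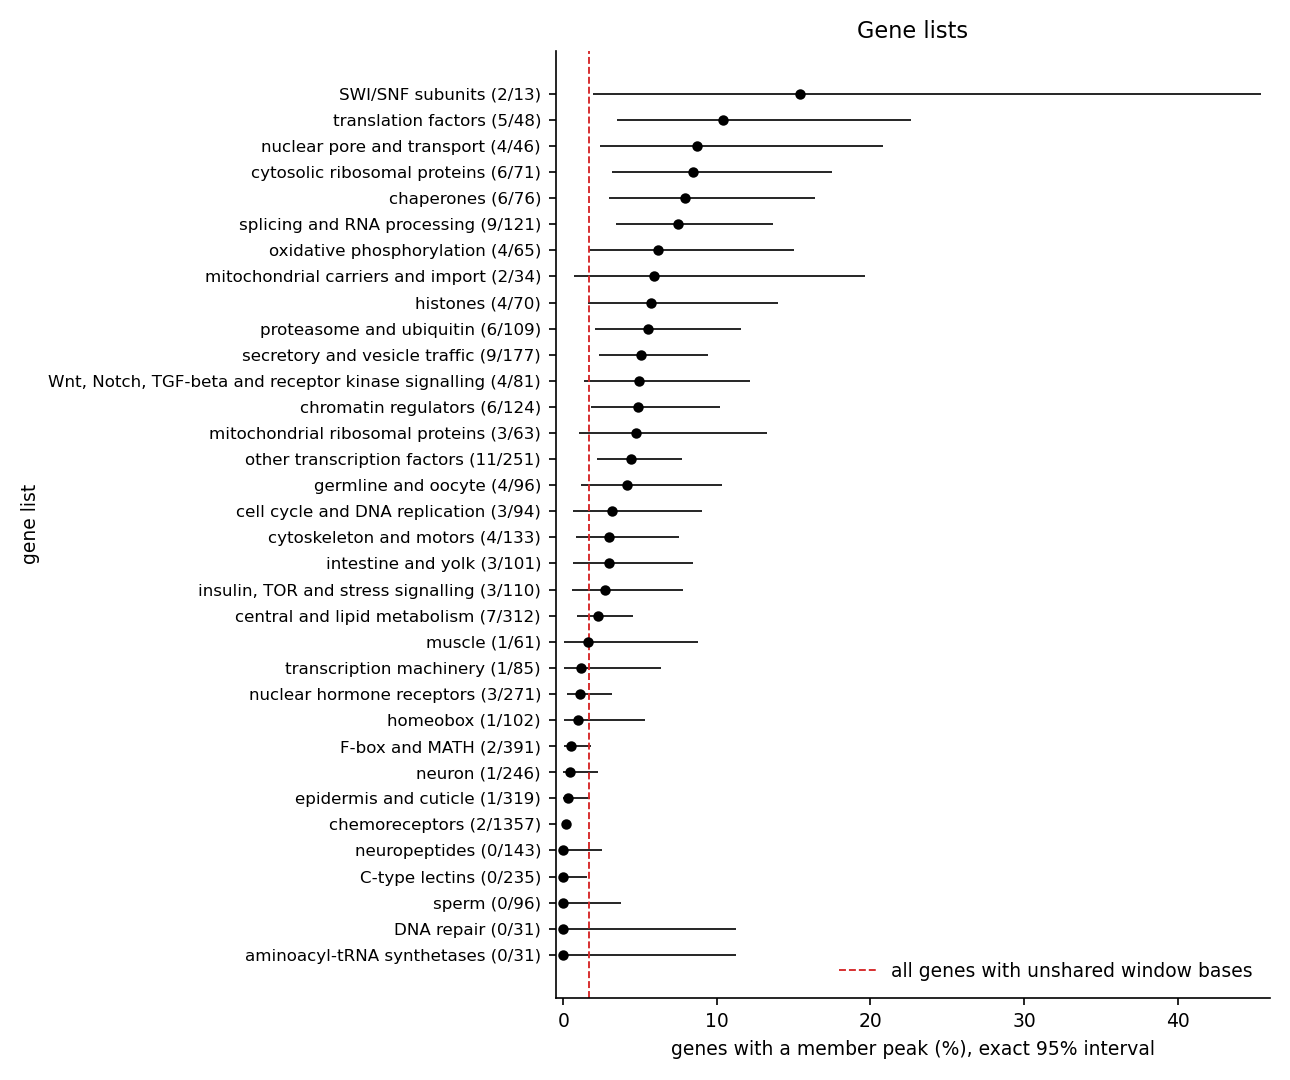
Share of the eligible genes of each list with a member (points, with exact 95% intervals), with the counts beside each name. The dashed line is the share over all eligible genes, 1.65%, and translation factors (10.4%) lie right of it while chemoreceptors (0.147%) lie left of it.

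Genes of protein synthesis held the strongest member and several others. Translation factors had 5 of 48 genes (10.4%, interval 3.47 to 22.7%), led by eef-1A.2, an elongation factor, with a signal of 139.0, with 73.3 and 64.5 in the replicates, and eif-3.B with 125.4. Replicates 1 and 2 alone gave 2 and 3 of these genes. Cytosolic ribosomal proteins had 6 of 71 (8.45%, interval 3.16 to 17.5%), which were rpl-3, rpl-35, rps-24, rpl-11.2, rpl-41.2 and rpl-24.2. Their median signal was 204.3, and 5 of the 6 peaks were called in both replicates. Mitochondrial ribosomal proteins had 3 of 63 (4.76%), with signals from 75.7 to 105.5 and none of their 4 peaks called in both. Aminoacyl-tRNA synthetases, which charge tRNAs, had 0 of 31. This allows a share of up to 9.68% by a limit of 3 counts, or 11.2% by the exact interval.

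Lists of protein folding and turnover come next. Chaperones had 6 of 76 genes (7.89%, interval 2.95 to 16.4%), and 5 of their 6 peaks were called in both replicates. hsp-1 had 187.3 and 81.3 in replicates 1 and 2, hsp-3 had 108.4 and 69.7, and the Hsp70 co-chaperone bag-1 had 92.2 and 67.6. The protein disulfide isomerase pdi-6 had 68.7 and 75.7, and was the only one of these 4 that was higher in replicate 2. The proteasome and ubiquitin list had 6 of 109 genes (5.50%), among them cdc-48.1, the HECT ligases eel-1 and wwp-1 (174.9), and the E2 enzyme ubc-3 (106.6), with 6 and 3 genes in replicates 1 and 2 alone. Oxidative phosphorylation had 4 of 65 (6.15%), with the cytochrome c oxidase genes cox-5A at 242.0 and cox-5B at 204.0, sdha-1 of succinate dehydrogenase at 99.8 and cox-6A at 84.3. The members of sdha-1 and cox-6A lay beside a snoRNA and a snRNA gene. Replicates 1 and 2 alone gave 4 and 2 genes of this list.

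Members of the splicing list had a median signal of 85.6, and those of the nuclear pore list 121.9. Splicing and RNA processing had 9 of 121 genes (7.44%, interval 3.46 to 13.7%), but only mog-4 of the 9 peaks was called in both replicates. The others ran from cyn-10 at 141.6 downward, with the SR protein rsp-6 at 109.2 and the Sm protein snr-4 at 85.6. Replicates 1 and 2 alone gave 2 and 1 genes of this list, shares of 1.65% and 0.826%. Nuclear pore and transport had 4 of 46 (8.70%, interval 2.42 to 20.8%), which were imb-3, an importin, at 154.8, npp-6, a nucleoporin, at 153.6, imp-3 at 90.2 and npp-18 at 81.8, with 2 genes in each replicate alone. npp-6 had 52.3 in replicate 1 and 103.6 in replicate 2, against the order of most members.

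SWI/SNF genes were among the chromatin genes with a member. Of 13 such genes, 2 had one: swsn-7, the counterpart of ARID2, a subunit of the PBAF form of the complex, with a signal of 149.9 (84.4 and 58.2 in the replicates), and swsn-3, with 74.0 (37 and 43.3). Only the first was called in both replicates, and with 13 genes the interval ran from 1.92 to 45.4%. The swsn-7 summit lay 689 bp upstream, inside the ncRNA gene C08B11.11, and cannot be assigned to swsn-7 alone. Other chromatin regulators had 6 of 124 (4.84%), among them cbp-1, the H3K4 methyltransferase set-2 (142.2), prmt-5, the acetyltransferase hat-1 (104.4) and the H3K36 methyltransferase met-1 (102.0). Histones had 4 of 70 (5.71%), his-37 (109.1), hil-4 (84.8), his-24 (72.0) and the H3.3 gene his-72 (65.6). Transcription machinery had only cdk-7 of 85 (1.18%).

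Transcription factors outside the receptor and homeobox families had 11 of 251 genes (4.38%, interval 2.21 to 7.71%). ztf-7 led with 190.5 (109.7 and 84.3 in the replicates), followed by cebp-1 with 126.3 (78.1 and 47.8). Stress regulators were among the rest: xbp-1 and atf-6 of the unfolded protein response, skn-1, the Nrf factor of oxidative stress, and daf-16, the FOXO factor of insulin signalling. Of these, xbp-1 had 99.6 and the stronger daf-16 peak 88.1, and only 2 of the list's 13 peaks were called in both replicates. Each replicate alone gave 3 genes of this list (1.20%). Nuclear hormone receptors had 3 of 271 (1.11%), with nhr-48 at 129.4 the strongest, and homeobox genes had ceh-39 alone of 102 (0.980%).

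Trafficking, cell cycle, signalling, cytoskeleton and metabolism lists had shares from 0 to 5.88%. Secretory and vesicle traffic had 9 of 177 genes (5.08%, interval 2.35 to 9.43%), and several of them act in autophagy, with epg-7 at 148.4, the Atg8 protein lgg-1 at 121.3 and atg-9 at 104.5. Replicate 1 alone gave 6 of these genes (3.39%) and replicate 2 alone gave 1 (0.565%), close to its share over all genes. Cell cycle and DNA replication had 3 of 94 (3.19%), rpa-2, the sliding clamp pcn-1 at 144.8 and the kinetochore gene knl-3 at 86.5. DNA repair had 0 of 31, which allows up to 9.68% by a limit of 3 counts, or 11.2% by the exact interval. The Wnt, Notch, TGF-beta and receptor kinase list had 4 of 81 (4.94%), cnk-1, kin-29 (90.0), kin-35 (87.1) and kin-14 (75.6). Insulin, TOR and stress signalling had 3 of 110 (2.73%), gst-27 (112.8), the 14-3-3 gene ftt-2 (108.6) and wdr-23 (92.1). Cytoskeleton and motors had 4 of 133 (3.01%), with the alpha-tubulin gene tba-2 at 125.3, spectrin spc-1 at 123.6 and dnc-1 at 88.2. The last, zyg-11 at 77.1, was placed there by its symbol alone. Central and lipid metabolism had 7 of 312 (2.24%), with acs-2 at 96.2 and idhb-1 at 93.1. Mitochondrial carriers and import had 2 of 34 (5.88%), mai-2 at 70.4 and phb-2 at 68.9, both placed there by symbol alone.

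Lists named after tissues and large gene families came last. Germline and oocyte genes had 4 of 96 (4.17%), egg-5, a pseudophosphatase of egg activation (190.7), the Pumilio-family gene puf-9 (162.5), the RNA-dependent RNA polymerase ego-1 (161.2) and cgh-1 (103.5). The first 3 were called in both replicates, but the egg-5 summit lay inside sls-2.4 and cannot be assigned to egg-5. The puf-9 summit lay inside ncRNA genes and cannot be assigned to puf-9 alone. Replicates 1 and 2 alone gave 4 and 3 genes of this list. Intestine and yolk had 3 genes (2.97% of those eligible), and vit-2 and vit-6 had their summits inside the gene. Muscle had unc-112, the kindlin, of 61 genes (85.4), neurons had the synaptic gene syd-2 of 246 (76.3, a share of 0.407%), and epidermis and cuticle had grl-7 of 319 (78.5, a share of 0.313%). Chemoreceptors had 2 of 1357 (0.147%, interval 0.0179 to 0.531%), sre-23 (110.0) and srh-2 (77.9), and F-box and MATH genes had 2 of 391 (0.512%), fbxa-24 (79.3) and fbxb-72 (71.8). Sperm genes had 0 of 96, C-type lectins 0 of 235 and neuropeptides 0 of 143. These allow up to 3.13%, 1.28% and 2.10% by a limit of 3 counts, or 3.77%, 1.56% and 2.55% by the exact interval.

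Gene length and spacing were compared as medians. The median gene length was 2606 bp for the 325 genes and 2038 bp for all eligible genes, and the gap to the upstream neighbour was 1312 bp against 958 bp. Since a shared window excluded a peak, the rule itself favoured isolated starts.

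17 genes had 2 members each, and none had 3. In 9 of them the intervals overlapped, so that the second was a shoulder in the lists, as at T07F10.3, where a peak of 133.5 lay 70 bp and one of 11.4 lay 277 bp upstream. The others of this kind were F27D4.12, F46H5.2, W03H9.2, W06H8.6, ZC443.3, daf-16, scpl-3 and ubc-3. Separate pairs lay at eel-1 (377 and 795 bp upstream, 285.0 and 134.0), lgg-1 (256 and 855 bp, 121.3 and 116.0) and mrps-35 (151 and 993 bp, 88.9 and 75.7). At C33A11.2, R11A5.6, mdh-1 and mdl-1, a Mad-like bHLH gene, the second summit lay 4 to 190 bp inside the gene, and at kel-3 the weaker peak, 13.5, lay 93 bp inside. Both eel-1 peaks were called in both replicates, with 170.8 and 103.0 at the nearer summit and 68.4 and 67.0 at the farther one.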

How the data were processed

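ChIP-seq of LET-526 was measured in 2 biological replicates. The authors deposited peak lists, on ce11 per the labels, with a signal for each peak that the authors' peak caller gave. Which aligner and caller made them is not given in the sources used here, and no versions are. The optimal thresholded list held 1200 peaks, the conservative list 1077 and the thresholded lists of replicates 1 and 2 held 585 and 421, and their ranked lists 46104 and 49296. All signal columns used were matched, with 0 unmatched. Depth is unknown, and replicate calls reflect the authors' thresholds.

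Summits were placed against 19973 protein-coding genes of Ensembl release 115 and the RefSeq WBcel235 genome with Python 3.11.15, numpy 2.4.6, pandas 2.3.3 and scipy 1.17.1. Intervals are exact Clopper-Pearson 95% intervals, and the limit for a count of 0 is 3 counts. An eligible gene had bases in no other gene's window and outside tRNA genes. The 34 gene lists were symbol patterns, and the 12 motifs were searched on both strands. The members, lists and motifs were chosen with earlier results of these data known, and the words and the GC range after the values were seen. Named genes were those of the 25 strongest members, up to 4 per list by signal, genes with 2 members, the 2 peaks nearest each window edge on each side, and the 3 most discordant in rank in each direction. Others were named after their values were seen. Membership and motif counting were tested on simulated peaks and sequences. The alternatives were the conservative list, each replicate alone, stronger peaks only, other windows, transcript starts, tRNA-adjacent peaks kept, secondary peaks left out, a stricter overlap and a wider sequence window.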

Additional observations from a re-analysis of the deposited data

How the results depend on the processing

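Of 109 values of summary results under the alternatives, 75 stayed within the range set for them and 34 moved, and none changed sign. Each replicate alone gave 119 to 160 members, 116 to 155 genes and 48 to 55 genes in lists, with a median signal of 62.3 to 70.3, 93.8 to 97.5% upstream, a median offset of -318 to -288.5 bp and a GC difference of 14.9 to 15.3 points. Peaks above the median signal gave 179 members, 175 genes and 64 in lists, a median of 120.1, 95.5% upstream, 44.7% called in both and 15.3 points of GC. The window from 500 bp upstream to 100 bp downstream gave 23.8% of peaks, a median offset of -222 bp, 29.1% called in both and 13.9 points. The window from 2000 bp upstream gave 31.3%, -486.5 bp, 12.4 points and 22.6% inside another gene. Every transcript start gave 34.1%, 12.9 points and 9.05% inside another gene. Keeping peaks near tRNA genes, or leaving out secondary peaks, gave 13.9 points. A sequence window of 200 bp each side gave 5.49 points. Among single lists 97 of 306 values and among single motifs 21 of 120 moved, and the word GACGCAG was in 15% and 13.4% of members of replicates 1 and 2 alone. The cause of these shifts was not tested, apart from the smaller lists and the window limits themselves. No paired analysis was possible because there is 1 group. With 2 replicates, and with control data and reads not analysed here, weak members cannot be told from background. The 153 members called in neither replicate (44.7%, beside 43.3% of all optimal peaks) rest on both libraries together.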
